A study of Homo sapiens with 6 samples.

Results

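The genes described here are 10 genes of the melanocyte lineage, chosen by name as rows of the deposited count table: the transcription factor genes SOX10, MITF, PAX3 and TFAP2A and the pigment genes TYR, TYRP1, DCT, PMEL, MLANA and OCA2. They are 10 of the 16934 genes in the table. RNA was sequenced from A375 cells, a human melanoma line in long use whose BRAF gene has an activating mutation. These cells had received the Alt-R CRISPR-Cas9 system. The sgRNA was either against POLK (3 libraries), the gene of the error-prone DNA polymerase kappa, or a non-targeting control (3 libraries). Both groups therefore received Cas9 and an sgRNA, but only the POLK sgRNA had an intended target to cut. Total counts were between 42852645 and 56891905 per library. The labels state neither whether each group's cells were a pool or 1 clone nor whether its libraries had separate cultures as their source. The p-values therefore measure a spread that may be technical, and a difference between 2 cell populations and an effect of the POLK sgRNA cannot be told apart. POLK itself was at 18.2 ± 1.0 counts per 1000000 (CPM) with the POLK sgRNA and at 23.3 ± 0.84 CPM with the control sgRNA (SD, n = 3 each), a log2 fold change of −0.36 (SE 0.05; adjusted p = 7.9e-08 in edgeR's test). The position of the guide in POLK was not used here.

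Melanocytes arise from the neural crest. SOX10 and PAX3 act at the promoter of MITF, the transcription factor regarded as the master regulator of the lineage, and MITF in turn acts on the genes that make and package melanin. Tyrosinase (TYR) catalyses the first steps of melanin synthesis, TYRP1 and dopachrome tautomerase (DCT) are related enzymes of later steps, PMEL forms the fibrils on which melanin is laid down, MLANA (MART-1) is a melanosome protein used as a diagnostic marker and tumour antigen, and OCA2 is an anion channel protein of the melanosome membrane. Melanoma cells can lose pigment gene expression and keep neural crest factors, a state often described as dedifferentiated.

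The promoter stretches below, from RefSeq (GRCh38.p14), are shown because MITF is known to bind the M-box, an extended E-box whose core TCATGTG is in capitals, upstream of the tyrosinase family, and because the start of MITF-M, the melanocyte isoform, has a cAMP response element, TGACGTCA, in capitals.
TYR, chr11:89177730-89177816, plus strand: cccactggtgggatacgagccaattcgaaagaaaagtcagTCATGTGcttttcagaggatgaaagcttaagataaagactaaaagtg
TYRP1, chr9:12693200-12693286, plus strand: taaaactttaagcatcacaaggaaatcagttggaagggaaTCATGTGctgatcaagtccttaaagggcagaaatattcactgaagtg
DCT, chr13:94479771-94479857, minus strand: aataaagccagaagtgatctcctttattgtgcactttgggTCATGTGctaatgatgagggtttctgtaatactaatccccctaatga
MITF, chr3:69936390-69936497, plus strand: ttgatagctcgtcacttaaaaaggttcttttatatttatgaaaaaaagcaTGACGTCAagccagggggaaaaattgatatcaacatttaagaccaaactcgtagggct

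The M-box core began 105 bases before the start site in TYR, 145 in TYRP1 and 135 in DCT, where the same letters also occurred on the opposite strand 215 bases before the start. The other of the 2 listed starts of DCT had none of the motifs. The cAMP response element of MITF began 152 bases before the most downstream of its 3 listed starts. On either strand, TCATGTG was present within the 250 bases before 2.52% of the 35116 starts in the RefSeq table, and TGACGTCA before 1.65%. Of the 10 genes, 8 had a promoter in that table. The shorter E-box CATGTG, which is contained in TCATGTG, was also found in OCA2, 153 bases before the start, and before 9.42% of all starts. The E-box CACGTG, found before 6.34% of all starts, was in none of the 12 promoters of these genes, and MLANA, PAX3 and TFAP2A held none of the 4 motifs in this window. A match describes letters only.

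In this line the lineage factors were expressed and the pigment genes were close to undetected. SOX10 (ENSG00000100146, chromosome 22, 37970686 to 37987422) had 1123, 1164 and 1179 CPM with the POLK sgRNA and 1049, 1074 and 1057 CPM with the control sgRNA. Divided by exon length, SOX10 reached 311 ± 7.8 CPM per kilobase with the POLK sgRNA and 286 ± 3.4 CPM per kilobase with the control sgRNA (SD, n = 3 each), the 101st and 107th highest level of 16907 genes with an annotated length. The next factor, MITF, was at 4.58 ± 0.17 CPM per kilobase with the POLK sgRNA (rank 7086) and at 3.94 ± 0.006 CPM per kilobase with the control sgRNA (rank 7409). The highest value of any pigment gene in a library was 0.408 CPM per kilobase, for OCA2 with the POLK sgRNA, and the 6 pigment genes ranked between 11877 and 16712 with the POLK sgRNA and between 12773 and 13930 with the control sgRNA. The labelled melanoma identity was therefore visible in SOX10, MITF, PAX3 and TFAP2A, and the defining pigment marker TYR was absent from 5 of 6 libraries.

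Ordered by level per kilobase with the POLK sgRNA, the genes ran SOX10, MITF, PAX3, TFAP2A, OCA2, PMEL, MLANA, DCT, TYRP1 and TYR, and the ranges over libraries overlapped only between DCT and TYRP1 and between TYRP1 and TYR among neighbours in that order. With the control sgRNA the first 4 genes kept the same order without overlap. Their order after that was MLANA, TYRP1, PMEL, OCA2, DCT and TYR, and each of these genes overlapped with the next.

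Control library 1 stood apart in this gene group. All 19 TYR counts of the data set were in it, and it held 64 DCT counts, against 2 and 1 in control libraries 2 and 3. Over the whole table, 4 genes with at least 10 counts had at least 4 times the CPM of both other control libraries in control library 1 (TYR, DCT, COX7B2 and KLK5), and no gene did so in control library 2 or 3. The same count was 4, 1 and 3 in POLK sgRNA libraries 1, 2 and 3, with none of the 10 genes among them. This search and its thresholds were chosen after the values were seen, and the source of the counts was not tested. The log2 fold changes of DCT, PMEL and MLANA are given with and without this library. The control ranks and control order above include it, and the control rank of TYR, 13930, rests on this library alone.

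**Figure D1:**
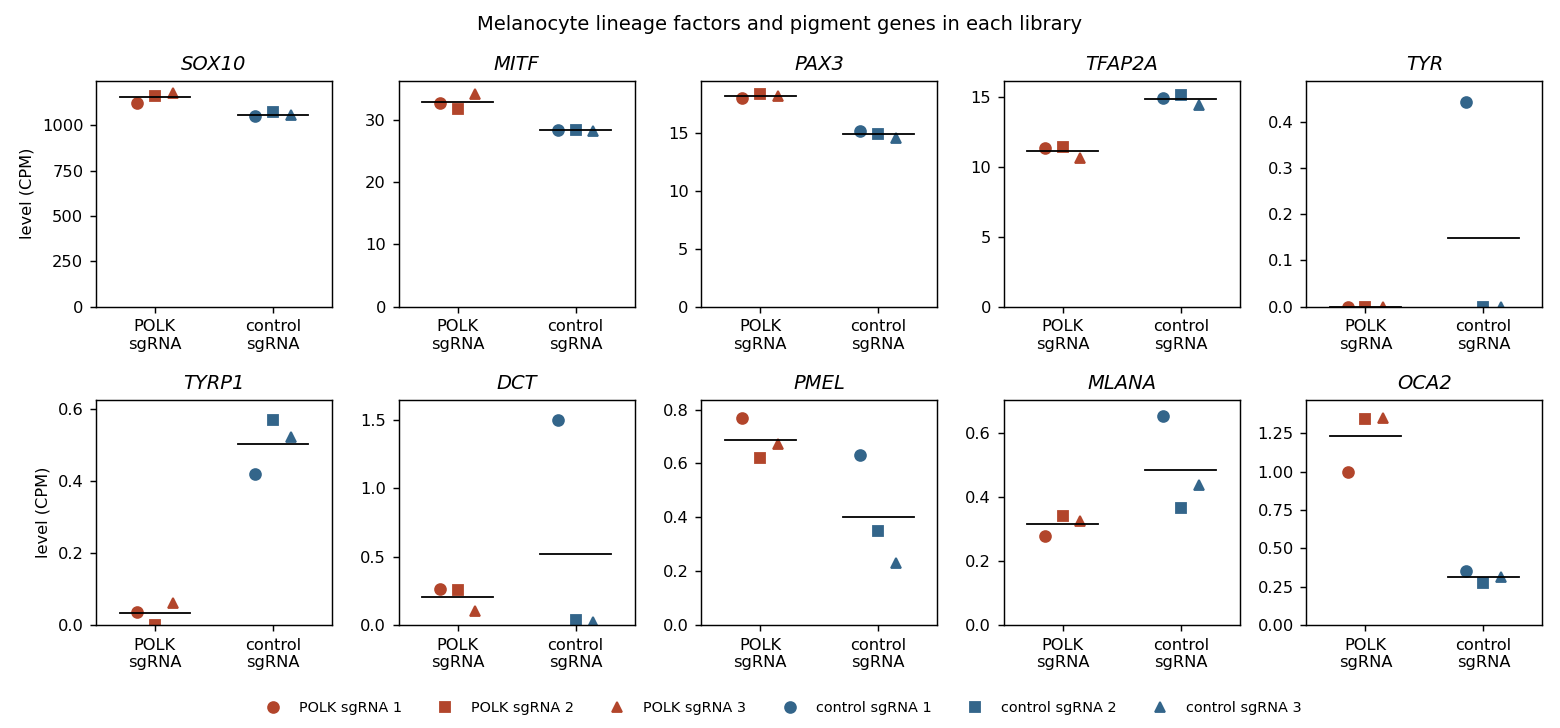
Level of each of the 10 genes in CPM (linear axis from 0, a separate scale for each gene) in the 3 POLK sgRNA libraries and the 3 control sgRNA libraries; marker shapes give the library number and lines the group means. The factors in the first 4 panels show tight groups that do not overlap, while TYR and DCT show 1 high control library, at 0.44 and 1.49 CPM.

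Of the 10 genes, 9 had enough counts for a test (TYR did not), and 5 of these rose and 2 fell with the POLK sgRNA (adjusted p under 0.05 in the quasi-likelihood test of edgeR). Among all 13930 genes tested, 64.3% passed, 32.8% of them higher and 31.6% lower as shares of all tested, so 7 of 9 (77.8%) is a share near the background and says nothing particular about the lineage. The groups did not overlap in 7 of the 9 genes, against 67.7% of all tested genes. The median log2 fold change of the 9 genes was 0.12, against 0.008 over all tested genes. Sizes differed widely: on the log2 scale the factors lay between −0.41 and 0.29, while OCA2 was at 1.97 and TYRP1 at −3.86.

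Among the factors, SOX10, the neural crest factor that directs melanocyte and glial fates, rose by a small amount. Its log2 fold change was 0.12 (SE 0.02; adjusted p = 8.1e-06 in edgeR's test), a fold of 1.09, and every POLK sgRNA library was above every control library. Of all genes that passed the test, 15.4% had a smaller change.

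MITF (ENSG00000187098, chromosome 3, 69739435 to 69968337) had 32.7, 31.7 and 34.2 CPM in the POLK sgRNA libraries and 28.3, 28.3 and 28.2 CPM in the control libraries. The control libraries were nearly identical and all lay below the POLK sgRNA libraries. The log2 fold change was 0.22 (SE 0.04; adjusted p = 1.1e-05 in edgeR's test). The table gives 1 count per gene, so the melanocyte isoform that starts at the promoter printed above was not separated from the longer isoforms.

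PAX3 (ENSG00000135903, chromosome 2, 222199888 to 222298996), a paired box factor of the neural crest and of melanocyte stem cells, had 18.0, 18.4 and 18.2 CPM with the POLK sgRNA and 15.2, 14.9 and 14.6 CPM with the control sgRNA. The groups were separate, with a log2 fold change of 0.29 (SE 0.05; adjusted p = 4.3e-06 in edgeR's test).

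TFAP2A (ENSG00000137203, chromosome 6, 10393186 to 10419659), the gene of the AP-2 alpha factor that works with MITF at melanocyte genes, was the factor that fell. It had 11.3, 11.4 and 10.7 CPM with the POLK sgRNA and 14.9, 15.1 and 14.4 CPM with the control sgRNA, again without overlap. The log2 fold change was −0.41 (SE 0.06; adjusted p = 7.5e-08 in edgeR's test). Antisense genes cover 11.4% (TFAP2A-AS2) and 5.29% (TFAP2A-AS1) of its exon bases on the other strand, and the library kit does not mark strand, so reads of the sense and antisense genes cannot be told apart there. Its paralogs TFAP2B and TFAP2C, named here for that relation after their values were seen, also fell, to 266 ± 4.3 and 112 ± 4.2 CPM with the POLK sgRNA, against 294 ± 4.0 and 142 ± 2.2 CPM with the control sgRNA (SD, n = 3 each), with log2 fold changes of −0.14 and −0.35.

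The pigment genes had at most 66 counts in any library, and they moved in both directions. OCA2 (ENSG00000104044, chromosome 15, 27754875 to 28099358) had 57, 63 and 66 counts in the POLK sgRNA libraries and 15 counts in each control library. That was 0.998, 1.35 and 1.35 CPM with the POLK sgRNA and 0.35, 0.27 and 0.31 CPM with the control sgRNA, and the groups were far apart. The log2 fold change was 1.97 (SE 0.23; adjusted p = 5.2e-09 in edgeR's test), where 3.63% of all tested genes rose by 2-fold or more.

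TYRP1 (ENSG00000107165, chromosome 9, 12685439 to 12710290) moved the other way and was the largest change of the 9 genes. It had 2, 0 and 3 counts in the POLK sgRNA libraries and 18, 31 and 25 counts in the control libraries. Over the group, the POLK sgRNA libraries held 6.43% of the control level, with an exact 95% interval of the ratio from 0.0203 to 0.157 that covers counting error only. The log2 fold change was −3.86 (SE 0.49; adjusted p = 2.0e-08 in edgeR's test), the 94th largest in size of all tested genes, and 3.21% of them fell by 2-fold or more. With so few counts its size moved with single libraries: it was −4.55 without POLK sgRNA library 3 and −3.36 without POLK sgRNA library 2. The antisense gene LURAP1L-AS1 covers 2.73% of its exon bases.

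PMEL (ENSG00000185664, chromosome 12, 55954105 to 55973317) had 44, 29 and 33 counts, or 0.77, 0.62 and 0.67 CPM, with the POLK sgRNA and 27, 19 and 11 counts, or 0.63, 0.35 and 0.23 CPM, with the control sgRNA. Control library 1 lay within the range of the POLK sgRNA libraries, so the groups overlapped. The gene rose by a log2 fold change of 0.82 (SE 0.27; adjusted p = 0.0098 in edgeR's test), or 1.23 (adjusted p = 0.00058) without control library 1. The call was lost in DESeq2 (adjusted p = 0.054), on leaving out POLK sgRNA library 1 (0.057) and on leaving out control library 3 (0.095), where the log2 fold change was 0.54. PMEL shares 89 exon bases with CDK2 on the other strand, and reads of PMEL and CDK2 cannot be told apart there. CDK2 was at 96.5 ± 0.58 CPM with the POLK sgRNA and at 66.7 ± 1.6 CPM with the control sgRNA (SD, n = 3 each). The part of CDK2 reads in the PMEL counts was not tested.

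DCT (ENSG00000080166, chromosome 13, 94436808 to 94479682) had 15, 12 and 5 counts with the POLK sgRNA and 64, 2 and 1 counts with the control sgRNA. The levels were 0.26, 0.26 and 0.10 CPM in the POLK sgRNA libraries and 1.49, 0.04 and 0.02 CPM in the control libraries, so the POLK sgRNA libraries lay between control library 1 and the other control libraries. With all libraries the log2 fold change was −1.14 (SE 1.67) and did not pass (adjusted p = 0.59 in edgeR's test). Without control library 1 the direction turned, with a log2 fold change of 2.73 (SE 0.72; adjusted p = 0.0014), and limma-voom on all libraries gave 0.77 (adjusted p = 0.71).

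MLANA (ENSG00000120215, chromosome 9, 5890802 to 5910606) had 16 counts in each POLK sgRNA library and 28, 20 and 21 counts in the control libraries. At 0.28, 0.34 and 0.33 CPM with the POLK sgRNA and 0.65, 0.37 and 0.44 CPM with the control sgRNA, the groups did not overlap, although the highest POLK sgRNA library and the lowest control library were close. The log2 fold change of −0.59 (SE 0.29) did not pass (adjusted p = 0.075 in edgeR's test). It was −0.35 (adjusted p = 0.35) without control library 1 and passed, at −0.78 (adjusted p = 0.037), without control library 2.

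TYR (ENSG00000077498, chromosome 11, 89177452 to 89295759) had no count in the 3 POLK sgRNA libraries and 19, 0 and 0 counts in the control libraries. A count of 0 over the POLK sgRNA group allows a level of up to 0.0196 CPM (3 counts over the group, counting error only). Outside control library 1 the gene was not detected at this depth in either group, so no fold change is given. Summed, the 6 pigment genes had 2.35, 2.57 and 2.51 CPM with the POLK sgRNA and 3.99, 1.59 and 1.52 CPM with the control sgRNA. Without TYR and DCT the sums were 2.08, 2.31 and 2.41 CPM with the POLK sgRNA and 2.05, 1.557 and 1.499 CPM with the control sgRNA. The direction of the first sum therefore differed between control library 1 and the other control libraries.

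**Figure D2:**
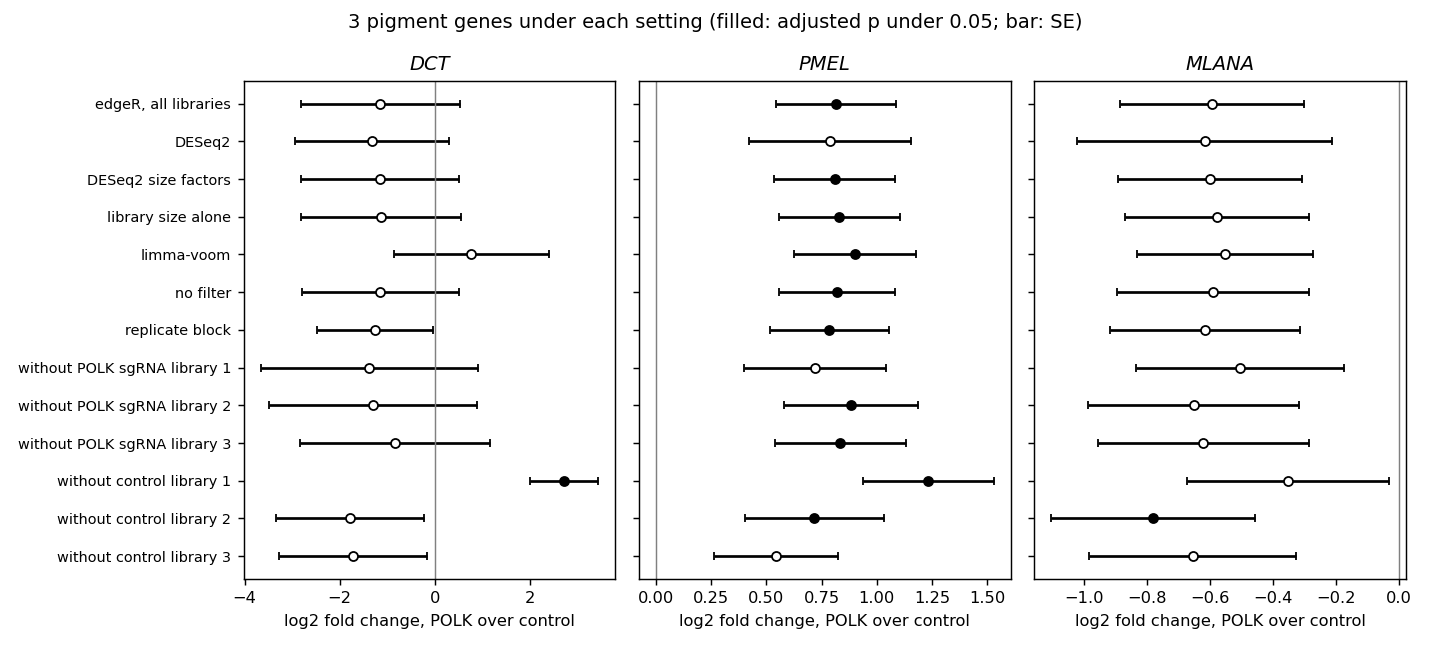
Log2 fold change of DCT, PMEL and MLANA (POLK sgRNA over control sgRNA, bars give the SE, a separate axis for each gene) under each test, scaling, filter and left-out library that gave a value; filled points have an adjusted p under 0.05. DCT lies on the positive side of 0 in limma-voom (0.77) and without control library 1 (2.73), and PMEL stays positive under all settings shown.

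Each gene was then set beside its neighbours on the chromosome. Around PMEL, all 20 genes with at least 1 CPM (10 on each side, over 0.463 Mb) were higher, with a median log2 fold change of 0.65 and a range of 0.28 to 1.08, and the value for PMEL, 0.82, lay inside this range. Its nearest tested neighbours, DGKA and CDK2, rose by 0.44 and 0.53. The part of this neighbourhood in the result for PMEL was not tested.

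Around the other 9 genes the median of the 20 neighbours was between −0.10 and 0.08. TYRP1 and the next tested gene, LURAP1L, moved in opposite directions, with log2 fold changes of −3.86 and 2.05 (adjusted p = 2.3e-09 for LURAP1L in edgeR's test). The neighbours of OCA2 had a median of −0.10, and HERC2 after it, at −0.11, did not pass (adjusted p = 0.31 in edgeR's test). FRMD4B before MITF fell by 0.46 on the log2 scale, opposite to MITF, and EPHA4 before PAX3 fell by 0.82. SOX10 shares 89 exon bases with POLR2F on the other strand, which fell by 0.09 on the log2 scale.

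**Figure D3:**
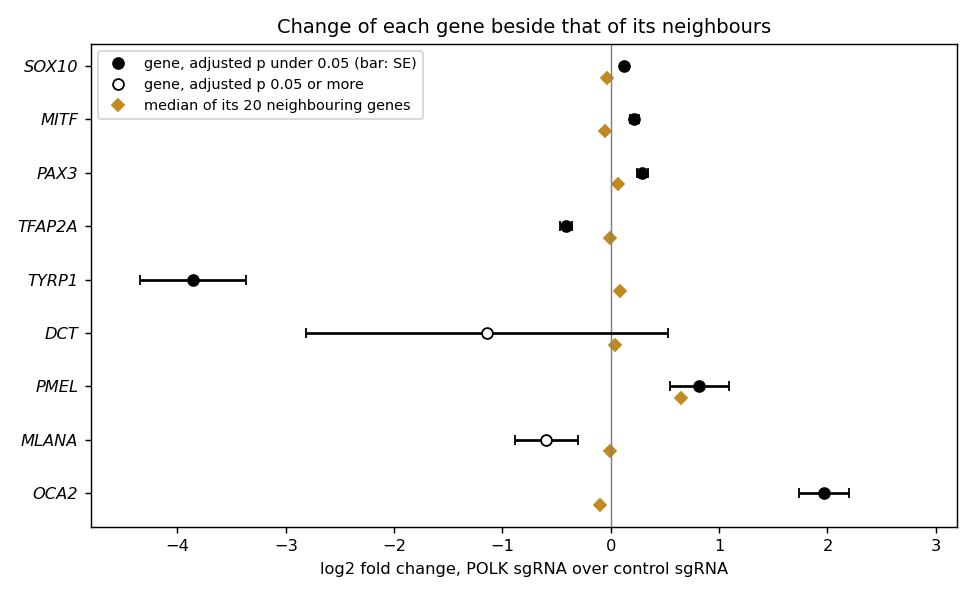
Log2 fold change of the 9 tested genes (POLK sgRNA over control sgRNA; circles, bars give the SE, filled where the adjusted p was under 0.05) with the median of the 20 neighbouring genes of each (diamonds). The diamond for PMEL, at 0.65, lies near the gene itself, and the others lie between −0.10 and 0.08.

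Genes around the lineage were then counted in 5 lists written from textbook knowledge. The counts of each list stand against 32.8% higher and 31.6% lower among all tested genes. Among partners and upstream factors, 9 of 15 tested genes fell and 4 rose, and their median log2 fold change was −0.14. FOXD3, a neural crest factor that represses MITF in development, had 41.1, 44.4 and 47.2 CPM with the POLK sgRNA and 15.2, 16.8 and 16.2 CPM with the control sgRNA, a log2 fold change of 1.46 (SE 0.05; adjusted p = 1.0e-18 in edgeR's test). SOX9, a SOX factor that opposes SOX10 in melanoma, had 4, 6 and 8 counts with the POLK sgRNA and 63, 103 and 74 counts with the control sgRNA, a log2 fold change of −3.78 (SE 0.27; adjusted p = 3.5e-14). Beta-catenin (CTNNB1), which activates MITF with LEF1, fell to 475 ± 11 CPM with the POLK sgRNA, against 630 ± 13 CPM with the control sgRNA (SD, n = 3 each; log2 fold change −0.41). The MITF relatives TFE3 and TFEB, named for that relation after their values were seen, rose by 0.09 and 0.57 on the log2 scale, and TFEC and IRF4, named because they were the untested genes of this list, had too few counts. The neighbours of FOXD3, SOX9 and CTNNB1 had median log2 fold changes between −0.03 and 0.03.

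Of the receptors and ligands that act on melanocytes, 4 of 8 tested genes rose and 2 fell, with a median of 0.36; KIT and POMC were not analysed here. ERBB3, a neuregulin receptor of the melanocyte lineage, had 418, 425 and 426 CPM with the POLK sgRNA and 263, 266 and 274 CPM with the control sgRNA (log2 fold change 0.66; adjusted p = 6.8e-23 in edgeR's test). HGF, the ligand of MET, was at 2.05 ± 0.19 CPM with the POLK sgRNA and at 0.70 ± 0.02 CPM with the control sgRNA (SD, n = 3 each), a log2 fold change of 1.54. KITLG, the ligand of KIT, was at 4.02 ± 0.35 CPM with the POLK sgRNA and at 1.84 ± 0.39 CPM with the control sgRNA (SD, n = 3 each), and it also rose. ERBB3 is among the 20 neighbours of PMEL, and KITLG, also on chromosome 12, had 20 neighbours that were all higher, with a median log2 fold change of 0.65. MC1R, the melanocortin receptor, named for its role after its values were seen, rose by 0.26.

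Genes of melanosome assembly, transport and ion balance moved in both directions: 8 of 23 tested genes rose and 6 fell, with a median of 0.007. LYST, a lysosome and melanosome trafficking gene, rose by 0.38 on the log2 scale. DTNBP1, the dysbindin gene of the BLOC-1 complex, rose to 14.4 ± 0.73 CPM with the POLK sgRNA, against 11.2 ± 0.25 CPM with the control sgRNA (SD, n = 3 each). MYO5A, the myosin that carries melanosomes, fell by 0.17 on the log2 scale. The 4 genes of the list with too few counts for a test, named for that after their values were seen, were SLC45A2 (at most 7 counts in a library), SLC24A5 (at most 3), SLC24A4 (at most 2) and TRPM1 (at most 1). GPR143, a receptor gene of the melanosome membrane also named after its values were seen, had 20, 10 and 14 counts with the POLK sgRNA and 19, 11 and 6 counts with the control sgRNA, and its log2 fold change of 0.21 (SE 0.38) did not pass (adjusted p = 0.64 in edgeR's test). Not all genes of the list were this low. GPNMB, also named after its values were seen, was at 117 ± 4.1 CPM with the POLK sgRNA and 115 ± 2.7 CPM with the control sgRNA (SD, n = 3 each). Its log2 fold change of 0.03 did not pass (adjusted p = 0.37 in edgeR's test).

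Of known MITF targets outside pigment synthesis, 9 of 17 tested genes rose and 4 fell, with a median of 0.16. CDK2, the cell cycle kinase gene that neighbours PMEL, rose by 0.53, ACP5, an acid phosphatase gene, by 0.66, and SCD, the stearoyl-CoA desaturase gene, fell by 0.48 on the log2 scale. SCD was at 680 ± 9.2 CPM with the POLK sgRNA and at 951 ± 2.9 CPM with the control sgRNA, and ACP5 was at 26.4 ± 0.52 CPM with the POLK sgRNA and at 16.7 ± 0.48 CPM with the control sgRNA (SD, n = 3 each). The highest point of the list, BCL2A1, a survival gene named after its values were seen, had 20, 13 and 31 counts with the POLK sgRNA and 1, 1 and 4 counts with the control sgRNA (log2 fold change 3.27). CDK2 is among the neighbours of PMEL, which were all higher, and around ACP5 the median log2 fold change of 20 neighbours was 0.23.

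Of markers of the state with low MITF, 12 of 17 tested genes fell and 4 rose, with a median of −0.35. The 3 with the smallest p were LOXL2, a collagen-crosslinking oxidase gene, and INHBA, an activin subunit gene, with log2 fold changes of −0.88 and −1.10, and TGFBI, a matrix protein gene, with 0.72. Around INHBA, 13 of 20 neighbours were lower and 3 higher, with a median log2 fold change of −0.125. Around LOXL2, 8 were lower and 3 higher, and around TGFBI 9 were lower and 6 higher, both with medians of −0.04. NGFR, the nerve growth factor receptor, named for its use as a marker after its values were seen, rose by 1.76. In each of the 5 lists the share that passed the test was between 60.9 and 94.1%, where 64.3% of all tested genes passed.

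**Figure D4:**
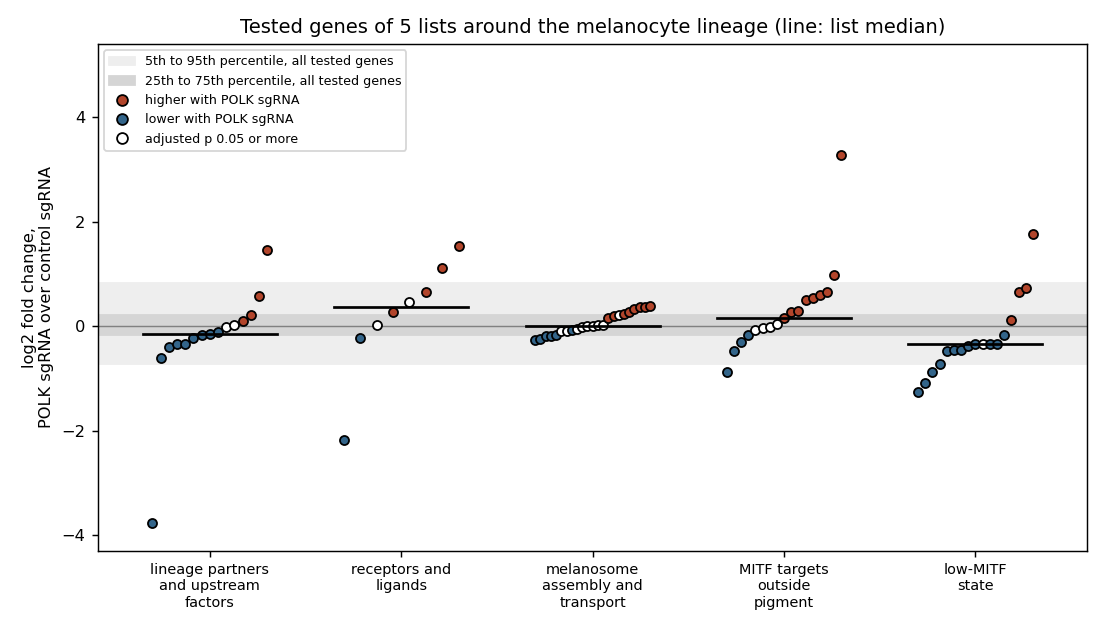
Log2 fold change (POLK sgRNA over control sgRNA) of each tested gene in 5 lists around the melanocyte lineage, coloured by the direction of genes with an adjusted p under 0.05; black lines are list medians and grey bands run from the 25th to the 75th and from the 5th to the 95th percentile of all tested genes. The list medians lie between −0.35 and 0.36, and BCL2A1 (3.27) and SOX9 (−3.78) are the highest and lowest points.

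Markers of other cell types were summed beside these results, and their counts stand against 32.8% higher and 31.6% lower among all tested genes. With the POLK sgRNA the leukocyte list summed to 58.1 to 60.3 CPM, against 17.6 to 18.0 CPM with the control sgRNA. The sum was mainly CD68 and LYZ, of 3 tested markers 2 rose and 1 fell, and the defining markers PTPRC and CD3E had at most 3 counts in a library. Schwann cell markers, several of which are SOX10 targets, summed to 239 to 245 CPM with the POLK sgRNA and 193 to 211 CPM with the control sgRNA, with 2 of 5 higher and 1 lower. Keratinocyte markers summed to 102 to 106 CPM with the POLK sgRNA and 83.6 to 87.8 CPM with the control sgRNA, and 3 of 4 tested rose. This sum was mainly KRT10, at 94.4 ± 2.0 CPM with the POLK sgRNA and 80.0 ± 1.8 CPM with the control sgRNA (SD, n = 3 each). The keratinocyte marker TP63 had at most 4 counts in a library. Fibroblast markers summed to 12.5 to 13.7 CPM with the POLK sgRNA and 8.79 to 11.2 CPM with the control sgRNA, with 2 of 5 higher and 2 lower. The single fibroblast markers moved far apart. LUM and DCN had log2 fold changes of 3.40 and 3.61, and COL1A2 and PDGFRA of −1.06 and −0.79. Endothelial markers summed to 5.84 to 6.27 CPM with the POLK sgRNA and 3.04 to 3.99 CPM with the control sgRNA, with 4 of 5 higher and 1 lower. Their part in the results was not tested. In bulk RNA, fewer cells that express a gene and less of its RNA per cell cannot be told apart.

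The genes whose levels followed SOX10 and MITF most closely over the 6 libraries were named by the smallest root-mean-square difference of log2 (CPM + 0.5) after subtraction of each gene's mean, among the 12340 genes compared, all averaging 1 CPM or more. For SOX10 they were PLOD1, MPND and TBL3, with differences of 0.006, 0.01 and 0.01 on the log2 scale. For MITF they were SP110, KLHDC2 and CDK2AP1, with differences of 0.012, 0.013 and 0.016. The libraries form only 2 groups, so this likeness mostly describes a similar difference between the groups.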

How the data were processed

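Raw counts of reads per gene for the 6 libraries were deposited by the authors as a single table. The submitters' processing notes name STAR, Trimmomatic, FastQC and DESeq2 and the build GRCh38. How reads were counted, and with which annotation, is not stated there. The mRNA libraries were made with the TruSeq RNA V2 kit, per the labels' protocols. Columns were matched to samples by name.

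Computation used R 4.3.3 and edgeR 4.0.16: filterByExpr (minimum count 10, minimum total 15) kept 13930 of 16934 genes (82.3%), libraries were scaled by TMM, and groups were compared with the quasi-likelihood F test (two-sided, robust, sgRNA as the only term), adjusted by Benjamini-Hochberg over all genes tested, threshold 0.05. The SE of a log2 fold change was its size over the square root of F. CPM were computed on library sizes scaled by TMM. Exon lengths (union of all exons), positions and overlaps came from GENCODE 29 (GRCh38). The fit was tested on simulated data. DESeq2 1.42.0 and limma 3.58.1 (voom), other scalings and filters, the replicate block and each library left out were alternatives. The 10 genes, the lists and the motifs were chosen with earlier results of these data known, and TGACGTCA after the sequences were read. Named from each list were the 3 genes with the smallest p; other names are marked as chosen for another reason.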

Additional observations from a re-analysis of the deposited data

How the results depend on the processing

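Over tests, scalings, filters and left-out libraries, SOX10, MITF, PAX3, TFAP2A, TYRP1 and OCA2 kept their direction and their side of the threshold in every setting that tested them, though the log2 fold change of TYRP1 ran from −4.55 to −3.36 on leaving out libraries. DCT reversed in limma-voom on all libraries (0.77) and without control library 1 (2.73); on leaving out each of the other libraries it stayed negative, the lowest value being −1.78. The call for PMEL was lost in DESeq2 and without POLK sgRNA library 1 or control library 3, and MLANA gained a call without control library 2, with the values given above; the cause was not tested. With only genes of at least 1 CPM tested, 3 of the 10 genes rose and 1 fell, because no pigment gene is then tested, and 1 receptor or ligand gene fell in place of 2. On leaving out each library, between 4 and 6 of the 10 genes rose and between 2 and 3 fell. Replicate numbers did not pair the libraries: deviations of same-numbered libraries from their group means correlated at −0.045, −0.014 and −0.062 over 12344 genes. With the replicate block, 5 rose and 2 fell, PMEL had a log2 fold change of 0.78 (adjusted p = 0.015 in edgeR's test), and 4483 of all genes rose and 4290 fell; no call among the 9 tested genes changed. The pigment genes rest on 0 to 66 counts per library, which limits what can be told about them.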
